A study of Mus musculus with 4 samples.

Results

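Beta cells that carried insulin RNA and few transcripts of the cell cycle were described in mouse pancreatic islets, as 2392 of the 6566 cell barcodes that passed the filters in 4 single-cell libraries. Kept barcodes had 500 counts or more over 250 genes or more, and mitochondrially encoded genes made up no more than 25% of their counts. A barcode was taken as a non-cycling beta cell when Ins1 and Ins2 together, the 2 mouse insulin genes, made up at least 1% of its counts. Glucagon (Gcg) and somatostatin (Sst) each had to stay under 1% and pancreatic polypeptide (Ppy) under 0.5%. The cell also had to hold fewer than 4 counts summed over Mki67, Top2a, Ube2c, Ccnb1, Ccna2, Cdk1, Pbk and Rrm2, genes of dividing cells. Among the kept barcodes the cells were thus chosen by the counts of these 13 genes, whose levels are given only as a description. The limit on mitochondrially encoded genes, which are tested below, was the same for every gate.

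The islets came from mice labelled Sin3A mutant or wild type (WT), profiled cell by cell with inDrop, in which droplets capture single cells and messenger RNA is read from its 3′ end. Each genotype had 2 libraries, called biological replicates in the series, and each library's title ends in _2426 or _3165. The genotype word is the whole description of the groups: the allele, the promoter or cell type of any Cre, the age of the mice and whether animals were pooled are not stated, and no treatment is stated. Since separate animals are not stated, p-values measure only the spread between these libraries. Within a genotype the _2426 library is given before the _3165 library throughout.

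Beta cells sense glucose by taking it up through a transporter and phosphorylating it, close potassium channels, let calcium in and release granules that hold insulin and islet amyloid polypeptide (Iapp). Their identity rests on transcription factors such as Pdx1, Nkx6-1 and Neurod1. In mice, postnatal maturation is known to bring up genes such as Ucn3 and G6pc2 and to bring down Npy and Pyy in beta cells. Alpha cells make glucagon, delta cells somatostatin and PP cells pancreatic polypeptide.

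Promoters of 4 genes that set the beta cells apart are shown because homeodomain factors of beta cells, such as Pdx1, bind DNA at a TAAT core. Each is the stretch of 250 bases before the RefSeq start (GRCm38.p6), 5′ to 3′ on the gene's strand, with every TAAT on either strand (TAAT or ATTA, overlaps included) in capitals. Ins2, the other insulin gene, is named only.
Ins1: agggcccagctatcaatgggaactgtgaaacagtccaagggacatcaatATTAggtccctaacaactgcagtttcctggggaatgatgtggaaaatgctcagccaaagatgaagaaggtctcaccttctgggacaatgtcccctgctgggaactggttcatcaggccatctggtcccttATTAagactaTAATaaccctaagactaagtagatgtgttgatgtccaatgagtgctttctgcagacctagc
Iapp: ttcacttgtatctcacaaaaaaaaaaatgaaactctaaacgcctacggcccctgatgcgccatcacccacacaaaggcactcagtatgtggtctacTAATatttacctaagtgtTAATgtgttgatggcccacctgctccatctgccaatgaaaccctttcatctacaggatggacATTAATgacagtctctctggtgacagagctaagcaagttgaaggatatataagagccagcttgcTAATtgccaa
Ucn3: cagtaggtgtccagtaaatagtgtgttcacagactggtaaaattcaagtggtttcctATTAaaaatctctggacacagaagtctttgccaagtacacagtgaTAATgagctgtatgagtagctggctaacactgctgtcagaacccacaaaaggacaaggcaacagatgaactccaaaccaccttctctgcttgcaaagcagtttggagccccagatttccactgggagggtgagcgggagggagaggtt
G6pc2: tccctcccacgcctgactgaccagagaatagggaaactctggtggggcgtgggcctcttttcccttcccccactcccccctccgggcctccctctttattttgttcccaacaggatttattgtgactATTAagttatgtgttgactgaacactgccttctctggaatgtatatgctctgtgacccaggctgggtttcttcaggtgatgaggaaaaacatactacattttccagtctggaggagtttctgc
The Ins1 window, chr19:52264047-52264296 (+), held 3 matches, a number that 17.3% of the 32851 promoters of the table reach. Iapp, chr6:142298175-142298424 (+), held 5, reached by 5.54% of promoters. Ucn3, chr13:3945350-3945599 (-), held 2, reached by 30.8%, and G6pc2, chr2:69210823-69211072 (+), held 1, reached by 54.9%. A match describes the letters of the window and is not evidence of binding.

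The libraries held 9282495 and 12236110 counts in the mutant and 12835199 and 10350699 in the WT. Barcodes shared between pairs of libraries numbered 12 to 42, of which 0 to 6 were beta cells in both, and the highest correlation of log counts between any such shared barcode's profiles was 0.587. Sin3a, the gene named in the genotype and a corepressor scaffold that binds histone deacetylases, measured 59.6 and 19.1 CPM (counts scaled to a common library total) in the summed beta cells of the mutant libraries, against 28.9 and 44.9 CPM in those of the WT libraries. The levels of the genotypes overlapped, and the mutant1_2426 library was the highest of the 4. A 3′ tag outside a deleted part cannot check a deletion, so these values do not check the labels, and "mutant" below means the libraries labelled so. The log2 difference was 0.00 (edgeR quasi-likelihood test, adjusted p = 1).

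Non-cycling beta cells numbered 541 and 706 in the mutant libraries and 464 and 681 in the WT libraries. They were 47.2% and 29.4% of the kept barcodes in the mutant libraries, against 38.0% and 37.8% in the WT ones. The mutant mean of 38.3% ± 12.5 and the WT mean of 37.9% ± 0.141 (SD, n = 2 libraries each) did not differ beyond the spread of the libraries (two-sided exact permutation test, p = 1, where 0.333 is the smallest p that this design allows). The other gates set beside them were cycling beta cells (546), alpha cells (949), delta cells (150) and PP cells (79), and 303 cells with both insulin and somatostatin were put in none of these.

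Insulin took very different shares of the RNA of beta cells in the 4 libraries. The median share of Ins1 and Ins2 per beta cell was 29.5% and 3.26% in the mutant libraries, against 15.0% and 7.95% in the WT ones. Both the highest and the lowest library were mutant, so the genotypes overlapped: the means were 16.4% ± 18.5 for mutant and 11.5% ± 4.96 for WT (SD, n = 2 each), given with no test because the gate used these counts. In alpha cells, which were gated for glucagon and low insulin, the median insulin share was 0.185% and 0.0389% in the mutant libraries and 0.147% and 0.135% in the WT ones. Ins1 exceeded Ins2 in the _2426 libraries, with ratios of their summed counts of 1.51 in mutant and 1.18 in WT, and stayed below it in the _3165 libraries, with 0.757 in mutant and 0.876 in WT. Among beta cells of 1 library the insulin share had a coefficient of variation of 0.28 and 0.66 in mutant and 0.30 and 0.41 in WT, and Ins1 and Ins2 shares were correlated across cells at r = 0.696 and 0.884 in mutant and 0.746 and 0.723 in WT, values that share the cell's depth and library and carry no test.

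**Figure D1:**
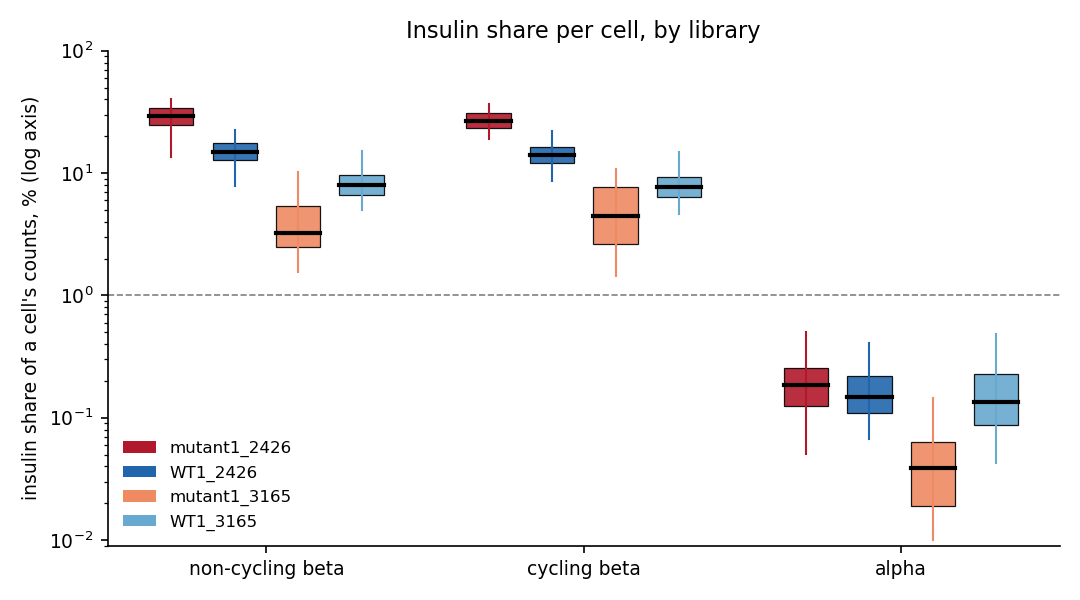
Share of each cell's counts taken by Ins1 and Ins2, in percent on a log axis, for non-cycling beta, cycling beta and alpha cells of each library. Boxes span the quartiles, the thick line is the median, whiskers run from the 5th to the 95th percentile with low ends cut at 0.01%, and the dashed line marks the 1% gate; median beta-cell shares are 29.5% and 3.26% in mutant and 15.0% and 7.95% in WT.

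The gates cut through few cells except in the mutant1_3165 library. Cells with 1 to 1.5% insulin numbered 2 and 29 in the mutant libraries and 5 and 3 in the WT libraries. Between 1.5 and 2% there were 0 and 56 in mutant and 2 and 0 in WT, so the insulin gate met the edge of the beta cells in mutant1_3165. Cells that passed every other gate but held 0.5 to 1% insulin numbered 11 and 9 in mutant and 20 and 12 in WT. Just inside the cycling limit, with exactly 3 counts, were 15 and 22 mutant and 22 and 23 WT cells, and just outside, with exactly 4, were 13 and 18 mutant and 12 and 10 WT cells. Other hormones were low in the summed counts of beta cells. Glucagon made up 0.0534% and 0.0604% in mutant and 0.0416% and 0.161% in WT beta cells, against 15.9% and 15.3% in mutant and 11.8% and 18.5% in WT alpha cells.

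The markers that the gates did not use bore out the name. Iapp, the peptide stored and released with insulin, stood in beta cells at 39740 and 31100 CPM in mutant and 29670 and 43100 CPM in WT, against 1715 and 4397 CPM in mutant and 3510 and 2954 CPM in WT alpha cells. The total behind a CPM value leaves out the 13 genes of the gates. G6pc2, an islet glucose-6-phosphatase subunit, stood in beta cells at 1358 and 741 CPM in mutant and 1710 and 694 CPM in WT, against 31.8 and 26.9 CPM in mutant and 32.6 and 28.8 CPM in WT alpha cells. Nkx6-1, a homeodomain factor that maintains beta-cell identity, stood in beta cells at 818 and 487 CPM in mutant and 882 and 509 CPM in WT, against 65.7 and 107 CPM in mutant and 150 and 37.4 CPM in WT alpha cells. For each of these genes the lowest beta-cell value lay above the highest alpha-cell value. Beta cells exceeded alpha cells of the same libraries by 3.73 for Iapp (log2, SE 0.26, adjusted p = 5.04e-07), 5.24 for G6pc2 (SE 0.20, adjusted p = 2.1e-09) and 3.13 for Nkx6-1 (SE 0.23, adjusted p = 7.76e-07). All of these come from edgeR's quasi-likelihood test with the library as a block, since both gates were read in each library.

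Ucn3, a peptide of mature beta cells that drives somatostatin release in mice, varied more than the other markers. It stood in beta cells at 646 and 259 CPM in mutant and 238 and 1060 CPM in WT, against 5.97 and 3.16 CPM in mutant and 2.61 and 12.1 CPM in WT alpha cells. The gates did not overlap, and beta cells were higher by 6.62 (log2, SE 0.19, adjusted p = 2.53e-10). Among beta cells alone the highest and the lowest library were both WT, with 4.45 times as much in the one as in the other.

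Shares of cells with a count were read after each cell was thinned to 2000 counts, which left 431 and 664 mutant and 424 and 596 WT beta cells. The cells shallower than that, 110 and 42 mutant and 40 and 85 WT beta cells, were set aside. The 2000 counts included the gate genes, so the counts left for other genes differed between libraries and gates. Ins1 and Ins2 averaged 366 and 239 of them in mutant1_2426 beta cells, against 36.7 and 48.3 in mutant1_3165. Iapp was found in 100% of the thinned beta cells of every library. G6pc2 was found in 80.3% and 70.0% of mutant and 89.9% and 65.6% of WT beta cells, against 6.98% and 3.08% of mutant and 6.06% and 3.05% of WT alpha cells. Without thinning the shares were 83.0% and 88.8% in mutant and 94.0% and 85.6% in WT beta cells, at median depths of 8650 and 6013 counts in mutant and 12739 and 5917 in WT beta cells, and 5853 and 4445.5 in mutant and 8050 and 5112 in WT alpha cells. In alpha cells the unthinned shares were 10.6% and 10% in mutant and 19.4% and 9.13% in WT, so most beta cells held G6pc2 at either depth, and the shares in alpha cells give the background at each. Ucn3 was found in 44.1% and 23.6% of thinned mutant and 23.6% and 66.4% of thinned WT beta cells, against at most 2.33% of alpha cells in any library. Nkx6-1 was found in 63.8% and 60.5% of thinned mutant and 74.8% and 57.1% of thinned WT beta cells, against 12.8% and 15.1% of thinned mutant and 19.2% and 3.60% of thinned WT alpha cells.

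Against alpha cells, 22.9% of the 15147 genes tested differed at an adjusted p under 0.05 and were counted as called, 13% higher and 9.89% lower in beta cells. The genes with the largest called differences included the glucose transporter Slc2a2, the granule docking protein Sytl4, the neuropeptide Npy, the membrane protein Tmem215 and the Wnt antagonist Frzb. Slc2a2 was higher in beta cells by 5.85 (log2, SE 0.18, adjusted p = 4.76e-10) and Sytl4 by 6.50 (SE 0.22, adjusted p = 1.01e-09). Slc2a2 ranged from 839 to 934 CPM over the beta cells of the 4 libraries, against 11.7 to 22.4 CPM in alpha cells. Sytl4 ranged from 944.5 to 1046 CPM in beta cells, against 3.98 to 16.7 CPM in alpha cells. Both were therefore nearly level across libraries whose insulin shares ranged from 3.26% to 29.5%. Tmem215 exceeded alpha cells by 6.02, Frzb by 5.93 and Npy by 5.85 on the log2 scale. Klk1, a tissue kallikrein with near-identical relatives, differed by 6.82 and Tceal6, which also has close copies, by 6.75, and how reads of such copies were assigned is not given.

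Genes lower in beta cells were led by regulators of alpha cells. Irx1, a homeobox factor of alpha cells, stood at 2.17 and 0.93 CPM in mutant and 2.03 and 4.25 CPM in WT beta cells, against 420 and 443 CPM in mutant and 555 and 516 CPM in WT alpha cells. Irx1 was lower by 7.55 (log2 difference -7.55, SE 0.23) and Irx2, a related factor, had a log2 difference of -7.19. Ghrelin (Ghrl), a hormone of epsilon cells, differed by -6.29, the somatostatin receptor Sstr2 by -6.17 and the imprinted gene Peg10 by -6.11. The 7 alpha markers that could be tested were called lower in 7 of 7 (100%, against 9.89% of all genes). Their median log2 difference was -2.87, against -0.03 over all genes.

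Most of the tested transcription factors known from beta cells were higher than in alpha cells. Of 16 in the list 15 were tested, and 9 were higher than in alpha cells (60%, against 13% of all genes). Another 2 were lower (13.3%, a share near the 9.89% of all genes), and the median was 0.41, against -0.03 over all genes. Insm1, a zinc finger factor of endocrine cells, was higher by 1.48 (log2), Pax6 by 0.53 and Neurod1 by 0.41. Pdx1, which activates the insulin genes and was named after its values were seen, was higher by 4.88 and ranged from 73.0 to 297 CPM in beta cells, against 3.95 to 6.90 CPM in alpha cells. The 2 lower members were Isl1, with a log2 difference of -1.37, and Myt1, with -0.63. Both serve several islet cell types. Mafa, a factor of mature mouse beta cells that activates the insulin genes, was counted at 0.93 and 0.23 CPM in mutant and 0.41 and 1.33 CPM in WT beta cells and was too low to test. The incretin receptor Glp1r was likewise too low, at 0.70 to 3.73 CPM in beta cells. Reads were taken from 3′ ends, and whether the annotation behind the counts holds the 3′ ends of Mafa and Glp1r is unknown, so such values do not show that the genes were silent.

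Of 19 genes of mature beta cells 15 were tested, and 13 were higher than in alpha cells (86.7%, against 13% of all genes) and 0 lower. The median log2 difference was 4.47, against -0.03 over all genes. Nnat, an imprinted membrane protein with a role in proinsulin processing whose locus overlaps Blcap, was higher by 5.58 and Ero1lb, an oxidase that forms disulphide bonds in proinsulin, by 3.94. The 2 members that were not called were Syt7, with a difference of 0.18, and Adcy5, with -0.76. Against delta cells the same list had 13 higher (86.7%, against 9.75% of all genes) and 0 lower of 15. The median was 4.81, against 0.17 over all genes.

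Genes known from immature beta cells were not uniformly low. Of 18, 16 were tested against alpha cells, with 4 higher (25%, against 13% of all genes) and 7 lower (43.8%, against 9.89%). The median was -0.95, against -0.03 over all genes. Npy stood at 1072 and 490 CPM in mutant and 663 and 634 CPM in WT beta cells, against at most 16.1 CPM in alpha cells. Pyy, a gut and islet peptide, was lower than in alpha cells by 1.86 (log2 difference -1.86, SE 0.34, adjusted p = 0.00149) and stood at 1651 and 3958 CPM in mutant and 7126 and 1166 CPM in WT beta cells. Gng12, a G protein subunit, was higher by 4.13 and Dlk1, an imprinted Notch ligand, by 1.20.

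**Figure D2:**
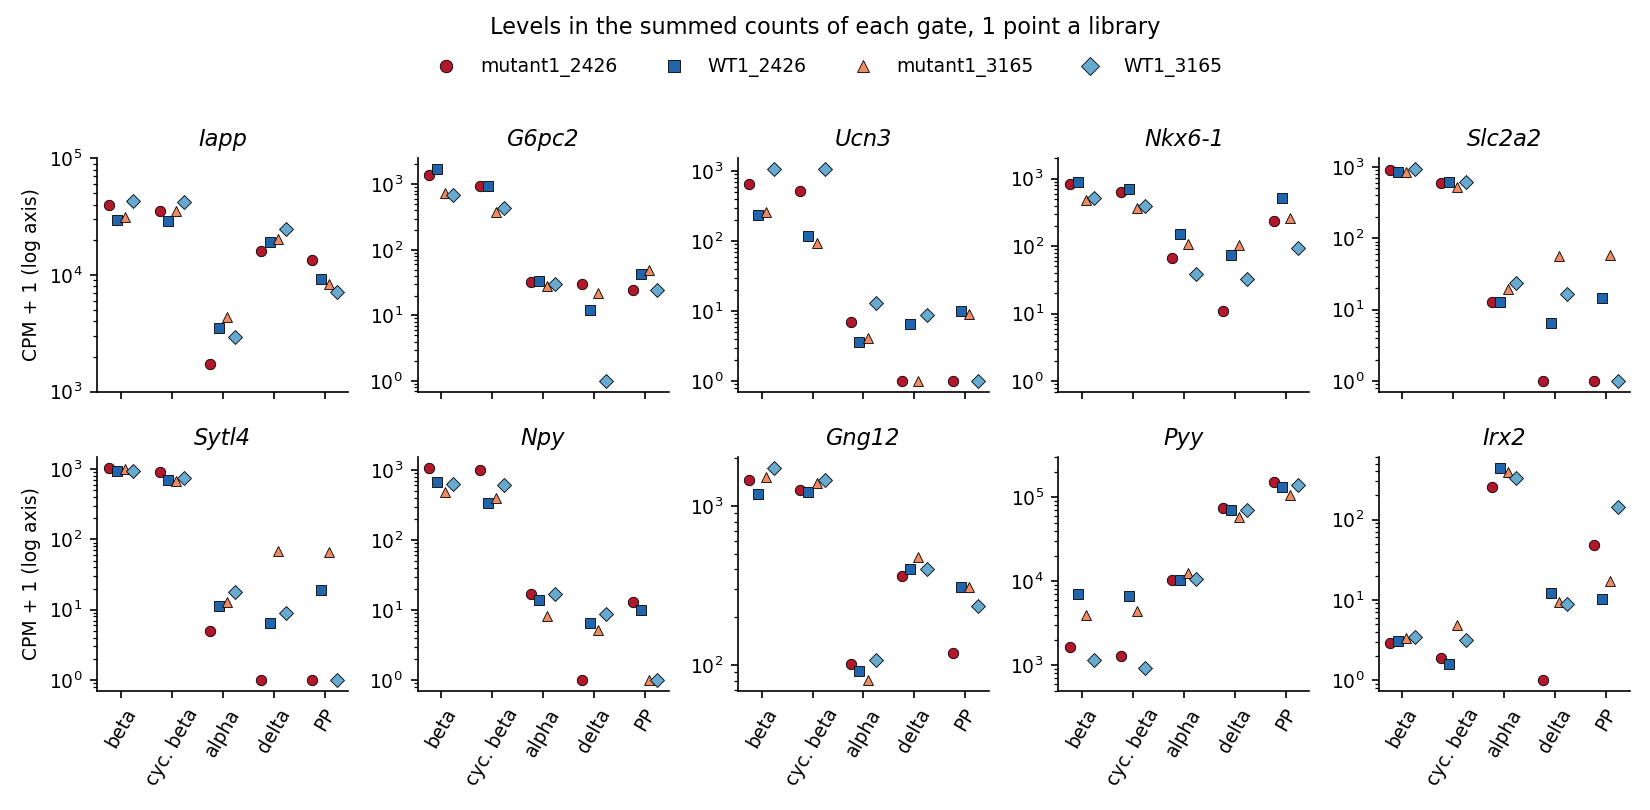
Levels of 10 genes as CPM + 1 on a log axis in summed beta, cycling beta, alpha, delta and PP cells, 1 point a library. Sytl4 and Slc2a2 lie nearly level over the beta cells of the 4 libraries, Ucn3 and Pyy spread widely (238 to 1060 CPM and 1166 to 7126 CPM), and Irx2 is low in every beta-cell sum; PP and delta points include libraries with few cells.

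Genes of granules and prohormone processing were mostly higher than in alpha cells. Of 17 tested, 10 were higher (58.8%, against 13% of all genes) and 4 lower (23.5%, against 9.89%), with a median of 0.78. The granule proteins Chga and Scg2 were higher by 1.80 and 2.18, and Pcsk1, a convertase that cuts proinsulin, by 4.34. Pcsk2, the other convertase, differed by -0.29 (adjusted p = 0.126) and the trimming enzyme Cpe by -0.13 (adjusted p = 0.587), so neither was called. The 4 lower members were Pcsk1n, Vgf, Ptprn2 and Resp18.

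Glucose sensing and excitability genes had 8 higher (57.1%, against 13% of all genes) and 0 lower of 14 tested, with a median of 0.92. Besides Slc2a2 and G6pc2 they included Gjd2, which forms the gap junctions that couple beta cells (3.05, log2), and the fatty acid receptor Ffar1 (1.49). Genes that beta cells are known to keep silent had 2 higher (13.3%, against 13% of all genes) and 5 lower (33.3%, against 9.89%) of 15 tested, with a median of -0.93. The 2 higher ones, a share near that of all genes, were Oat, an ornithine aminotransferase, by 0.56, and Dapp1, a signalling adaptor, by 2.83. The lactate dehydrogenase subunit Ldha was among the lower ones at -1.17 (adjusted p = 0.0472).

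Protein folding genes of the endoplasmic reticulum were high in beta cells. Of 24 genes of the unfolded protein response 20 were higher than in alpha cells (83.3%, against 13% of all genes). Another 2 were lower (8.33%, against 9.89%), and the median was 1.39. The chaperone Hspa5 stood at 3099 and 4655 CPM in mutant and 4040 and 4509 CPM in WT beta cells, against 689 and 1506 CPM in mutant and 1080 and 1091 CPM in WT alpha cells. It was higher by 2.10 (log2, SE 0.14, adjusted p = 2.85e-07). Hsp90b1 was higher by 1.61, Calr by 1.41 and the secreted factor Manf by 1.67. The 2 lower genes were Atf3 (-2.02), a stress-induced factor that also belongs to the immediate early list, and the sensor Ern1 (-0.60). The immediate early and dissociation list had 2 higher of 19 (10.5%, against 13% of all genes) and 8 lower (42.1%, against 9.89%). Egr1, at -0.44, was among the lower and Fos, at 0.03, was not called.

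**Figure D3:**
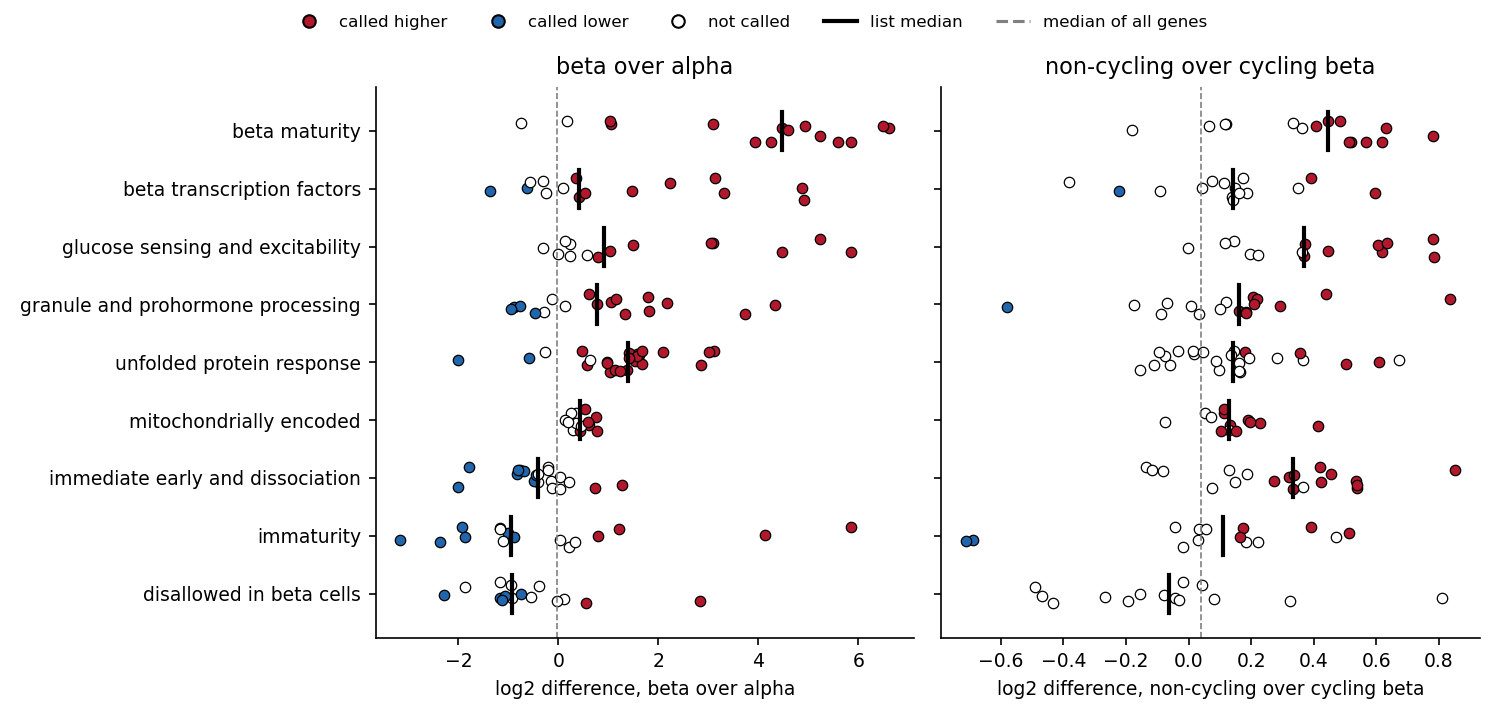
Log2 differences of the members of gene lists, beta over alpha cells on the left and non-cycling over cycling beta cells on the right, 1 point a gene, with red for called higher, blue for called lower and white for not called. Black bars are list medians and the dashed line is the median of all genes; the maturity list has 13 of 15 called higher on the left and 9 of 15 on the right.

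Some markers of other cells moved with this comparison. Of 6 endothelial markers 5 were lower in beta cells (83.3%, against 9.89% of all genes). Their summed level was 24.0 to 110 CPM in beta cells, against 70.5 to 468 CPM in alpha cells. Summed acinar markers ranged from 17.1 to 355 CPM in beta and from 19.9 to 411 CPM in alpha cells, and summed immune markers from 48.7 to 114 CPM in beta and from 31.6 to 125 CPM in alpha cells. In beta cells the acinar markers Prss2 in WT1_2426 and Pnlip in mutant1_3165 were at 0. The part of such cells in the results was not tested.

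Against delta cells, 14.7% of 13860 genes were called, 9.75% higher and 4.98% lower. For this comparison and that with PP cells edgeR gave every gene the same spread, so its p-values are too small. DESeq2 called 602 higher and 635 lower against edgeR's 1352 and 690. G6pc2 was higher in beta cells by 6.35 (log2, SE 0.28), Nkx6-1 by 3.62 and Iapp by 1.04 (SE 0.12). Of these markers Iapp was closest between the gates, at 16190 and 20320 CPM in mutant and 19270 and 24970 CPM in WT delta cells. The motor neuron and beta-cell factor Mnx1 had 0 counts in all delta cells, so that beta cells were at least 15.4-fold higher, with 3 counts over the delta cells as the floor. Ucn3 had 2 counts in delta cells, a ratio of pooled CPM of 167 (95% interval 46.1 to 1380, counting error only).

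Lower than in delta cells were Hhex, a homeobox factor that delta cells need (-7.55, log2), and Neurog3, the endocrine progenitor factor (-6.98). Pyy was lower by 4.43, with a log2 difference of -4.43. Of 13 mitochondrially encoded genes 12 were higher in beta cells (92.3%, against 9.75% of all genes), with a median of 1.09.

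Against PP cells only mutant1_3165 and WT1_2426 had 20 or more cells on both sides, and 9.11% of 12019 genes were called, 5.97% higher and 3.14% lower. DESeq2 called 171 higher and 160 lower there, against 718 and 377 by edgeR. G6pc2 was higher in beta cells by 4.94, Iapp by 1.85 and Nkx6-1 by 0.88 on the log2 scale. Ucn3 had 3 counts in the PP cells, a ratio of pooled CPM of 28.2 (95% interval 9.63 to 137, counting error only). The maturity list had 12 higher and 0 lower of 15 by edgeR, with a median of 3.86 against 0.15 over all genes. The 12 included Trpm5, which had 0 counts in PP cells and lost its call with DESeq2 (adjusted p = 0.783). Ghrl (-7.25) was among the lower genes. The hemoglobin gene Hba-a2, with a near-identical copy, was 1 of 8 named genes at 0 in PP cells, all of which lost their calls with DESeq2 (adjusted p 0.636 to 0.888). Summed erythroid markers in the 2 libraries tested were 657 CPM (mutant1_3165) and 414 CPM (WT1_2426) in beta cells, against 24.5 CPM and 0 CPM in PP cells, and their part in this was not tested.

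Non-cycling and cycling beta cells shared most of their identity genes but not at equal levels. The cycling limit is a number of counts not scaled to depth, and cycling cells were deeper in each library. Their median depths were 11683.5 and 7949 counts in mutant and 14246.5 and 8770 in WT. Those of non-cycling cells were 8650 and 6013 in mutant and 12739 and 5917 in WT. The part of depth in the differences below was not tested. Of 14772 genes 16.7% were called, 7.57% higher and 9.16% lower in non-cycling cells. All 27 tested genes of the cell cycle outside the gate were lower, with a median of -3.72, which follows the choice of the cells by 8 genes of the same process and is given as a description. G6pc2 stood in non-cycling cells at 1358 and 741 CPM in mutant and 1710 and 694 CPM in WT, against 936 and 381 CPM in mutant and 944 and 432 CPM in WT cycling cells. It was higher in each library, by 0.78 in all (log2, SE 0.06, adjusted p = 1.95e-10). Slc2a2 was higher by 0.62 (adjusted p = 1.14e-08), Ucn3 by 0.63 (adjusted p = 0.000961) and Nkx6-1 by 0.39 (adjusted p = 2.72e-05). For Ucn3 this did not hold in WT1_3165, with 1060 CPM in non-cycling and 1080 CPM in cycling cells, and its call was lost with DESeq2 (adjusted p = 0.163) and without WT1_2426 (0.516, adjusted p = 0.0727). Without the library as a block edgeR called 3 genes higher and 303 lower in place of 1118 and 1353, and the markers lost their calls (G6pc2 0.77, adjusted p = 0.855). Iapp was not called, at 0.03 (adjusted p = 0.546).

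The maturity list had 9 higher and 0 lower of 15 tested in non-cycling cells, with a median of 0.45 against 0.04 over all genes, and the glucose sensing list 8 higher and 0 lower of 14, with a median of 0.37. Over all genes 7.57% were called higher and 9.16% lower, the shares to set beside the counts of these lists. Immaturity genes moved both ways. Among the 4 higher in non-cycling cells were Npy (0.39), Pyy (0.17) and Gng12 (0.16), and the progenitor factor Sox4 (-0.69) and Nfib (-0.71) were the 2 lower ones. Of the transcription factors 2 of 15, Nkx6-1 and Hnf4a, were higher and 1, Insm1, was lower (-0.22). So few calls do not set that list apart from all genes. Among immediate early genes 11 of 19 were higher, with Btg2 at 0.54, Fosb at 0.42 and Fos at 0.32. The genes disallowed in beta cells had 0 of 14 called by edgeR.

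Among the genes named for the largest called differences in favour of non-cycling cells, Rgs16 led. Rgs16, a regulator of G protein signalling, stood at 74.2 and 41.7 CPM in mutant and 59.6 and 83.2 CPM in WT non-cycling cells, against 27.5 and 24.8 CPM in mutant and 23.2 and 27.5 CPM in WT cycling cells. The gates did not overlap, and the log2 difference was 1.32 (SE 0.15, adjusted p = 1.85e-07). Col6a3 (1.04), C77080 (1.01), Cited4 (0.98) and Eaf2 (0.97) followed. Summed erythroid markers were 50.3 and 657 CPM in mutant and 414 and 292 CPM in WT non-cycling cells, against 3134 and 1057 CPM in mutant and 10.7 and 1538 CPM in WT cycling cells. Of 5 such markers 2 were called lower in non-cycling cells, where 9.16% of all genes were called lower. In WT1_2426 the sum went the other way, and the part of these markers in the other differences was not tested.

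Cells were then ordered by insulin share within each library, and the highest and the lowest of 3 equal parts were compared, with 180 and 235 mutant and 154 and 227 WT cells in each. Insulin made up 35.9% and 7.35% of the summed counts of insulin-rich cells in mutant and 19.4% and 11.8% in WT, against 22.7% and 2.10% of insulin-poor cells in mutant and 11.5% and 5.97% in WT. The parts are ranges of 1 share and not types of cell: 68 to 186 cells of a library lay within 10% of either limit. Of 11939 genes only 0.804% were called by edgeR, 0.603% higher and 0.201% lower in insulin-rich cells. The identity markers did not pass the test: Iapp differed by 0.26 (adjusted p = 0.283), G6pc2 by -0.01 (0.991), Ucn3 by -0.27 (0.52), Nkx6-1 by 0.07 (0.89) and Pdx1 by -0.02 (0.983), all on the log2 scale with adjusted p from edgeR. The maturity list had 0 of 15 called, with a median of 0.07 against 0.00 over all genes. DESeq2 called 44 genes higher and 4 lower in place of edgeR's 72 and 24, and without the library as a block edgeR called 0, with 17 up and 31 down before adjustment, at p under 0.05.

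Of the 8 genes named as higher in insulin-rich cells Borcs5 differed most. Borcs5, a lysosome positioning subunit, stood at 358 and 165 CPM in mutant and 146 and 189 CPM in WT insulin-rich cells, against 115 and 29.0 CPM in mutant and 72.2 and 51.8 CPM in WT insulin-poor cells. It was higher in each library, by 1.71 in all (log2, SE 0.16, adjusted p = 9.55e-06). Tceal6 was higher by 1.69 (adjusted p = 3.68e-05), Cpne5, a calcium-dependent membrane binding protein, by 1.52 (adjusted p = 2.25e-06), Zbtb48, a telomere binding zinc finger protein, by 1.57, and Klk1 by 1.10 (adjusted p = 2e-06).

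Several of these genes also differed between whole libraries. Klk1 stood at 5894 and 128 CPM in mutant and 1089 and 372 CPM in WT beta cells, a ratio of 46.2 between the highest and the lowest library. Cpne5 stood at 1215 and 60.4 CPM in mutant and 621 and 85.0 CPM in WT, a ratio of 20.1, and Zbtb48 at 834 and 40.6 CPM in mutant and 275 and 52.9 CPM in WT, a ratio of 20.6. Klk1, Cpne5 and Zbtb48 followed the order of the insulin share over the libraries, from mutant1_2426 through WT1_2426 and WT1_3165 to mutant1_3165, as did Plag1, Tceal6, Arap1 and Tub. Borcs5 (ratio 2.66), Fam83e (3.31), Lrrc25 (14.9) and Defb9 (11.8) did not. Pdx1 and Npy, which were not called between insulin-rich and insulin-poor cells, also followed that order, with ratios of 4.07 and 2.19. The ratios of Borcs5 and Fam83e lay within the range of the identity genes. Among other identity genes the same ratio was 1.11 for Sytl4 and for Slc2a2, 1.45 for Iapp, 1.81 for Nkx6-1, 2.47 for G6pc2 and 4.45 for Ucn3. With 4 libraries no p is given for these orders. Whether reads of the insulin genes were counted under these names was not tested. Plag1, Defb9 and the order of the libraries were singled out after their values were seen.

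**Figure D4:**
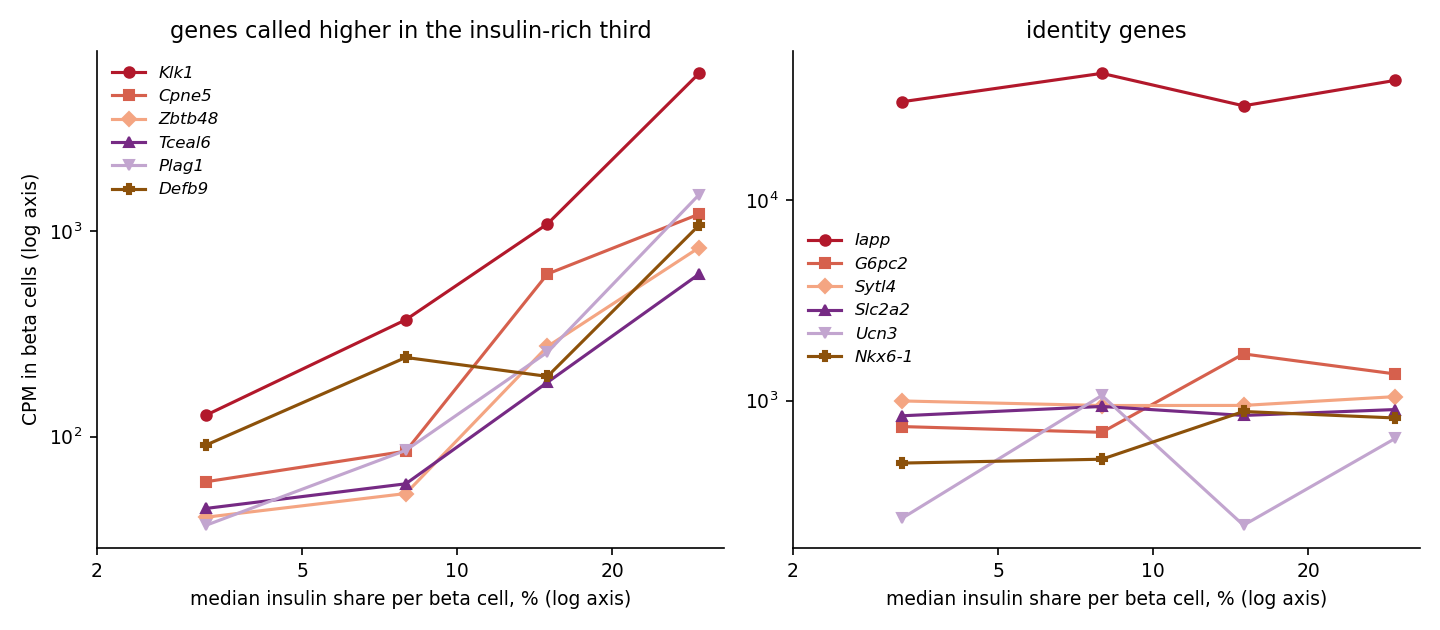
CPM in summed beta cells against the median insulin share of the library, both on log axes, 1 point a library joined by lines, for 6 genes called higher in insulin-rich cells on the left and 6 identity genes on the right. Klk1 spans 128 to 5894 CPM and Cpne5 60.4 to 1215 CPM, while Sytl4 stays between 944.5 and 1046 CPM.

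Genes lower in insulin-rich cells included markers of other cells. Those named were Cpb1 (-3.41), a pancreatic acinar protease, Col1a1 (-2.05) and Sparc (-1.99) of mesenchymal cells, the lipid carrier Apoe (-1.88) and B2m (-1.42), the light chain of MHC class I. The calls of Cpb1, Col1a1, Sparc and B2m were lost with DESeq2 (adjusted p 0.664 to 1), and without WT1_3165 Cpb1 stood at -0.56 (adjusted p = 0.936). Summed mesenchymal markers were 79.4 and 116 CPM in mutant and 36.7 and 63.4 CPM in WT insulin-rich cells, against 417 and 199 CPM in mutant and 256 and 67.3 CPM in WT insulin-poor cells. Summed acinar markers were 14.9 and 54.2 CPM in mutant and 24.3 and 30.0 CPM in WT insulin-rich cells, against 13.6 and 49.9 CPM in mutant and 27.1 and 974.5 CPM in WT insulin-poor cells. Only in WT1_3165 was the acinar sum of insulin-poor cells far above that of insulin-rich cells. Median depths, insulin counts included, were 7160.5 and 6385 counts in mutant and 11947.5 and 5628 in WT insulin-rich cells. In insulin-poor cells they were 7241 and 5527 in mutant and 12383.5 and 5738 in WT. Median numbers of genes found were 2122 and 2545 in mutant and 3615 and 2430 in WT insulin-rich cells. In insulin-poor cells these were 2648 and 2427 in mutant and 3879.5 and 2525 in WT. The part of these markers, or of depth, in the differences was not tested.

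Cell-to-cell spread was measured at 2000 counts per cell as the variance beyond counting error over the squared mean, the excess squared coefficient of variation (CV). The gate genes were among these counts. Over 275 genes the median was 0.169, a CV of 41.1%, and only 4 genes exceeded 1. Pyy and Npy averaged the highest values. Pyy had 17.0 and 2.41 in mutant and 1.25 and 4.79 in WT beta cells, and Npy 1.97 and 8.48 in mutant and 10.6 and 3.41 in WT. The means of 6.37 for Pyy and 6.12 for Npy turned round without mutant1_2426, to 2.82 for Pyy and 7.50 for Npy, and in mutant1_3165 and WT1_2426 Npy exceeded Pyy. Without its richest cell the Pyy value of mutant1_2426 was 12.45 in place of 17.0, a setting chosen after the data were seen. Transthyretin (Ttr), a thyroid hormone carrier, averaged 2.24, Zfp36, an RNA decay factor of the immediate early set, 1.03 and Fosb 0.76. In summed counts Pyy was lower in beta cells than in alpha (log2 difference -1.86), delta (-4.43) and PP cells (-4.41). Ttr was lower than in alpha cells (-2.87) but higher than in delta (3.89) and PP cells (1.77), and Npy was higher than in all of these gates. The part of RNA from other islet cells in the spread of these genes was not tested. Iapp was narrow, at 0.0721 and 0.190 in mutant and 0.161 and 0.0651 in WT beta cells, against 4.99 and 1.69 in mutant and 1.68 and 1.79 in WT alpha cells. G6pc2 was alike in all libraries, at 0.209 and 0.183 in mutant and 0.175 and 0.178 in WT. Outside the ribosomal protein genes, the lowest values were those of Hnrnpa3 (-0.0135), an RNA binding protein, and Serinc1 (0.00489). The protease inhibitor Cst3 (0.0262) and Dad1 (0.0299), a subunit of the oligosaccharyl transferase, followed. Some ribosomal protein genes were as low, such as Rpl31 (-0.0047).

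The 10% of beta cells richest in a transcript held 74.4% and 45.3% of all Pyy counts in mutant and 36.0% and 61.2% in WT, and 48.1% and 86.3% of Npy counts in mutant and 79.0% and 62.7% in WT. These shares are not freed of counting error and depend on the mean, which was 2.26 and 7.0 counts a cell for Pyy in mutant and 11.3 and 2.1 in WT, and 1.55 and 0.768 for Npy in mutant and 1.15 and 1.11 in WT, so they are not compared between genes. The richest single cell held 133 and 120 counts of Pyy in mutant and 102 and 52 in WT.

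**Figure D5:**
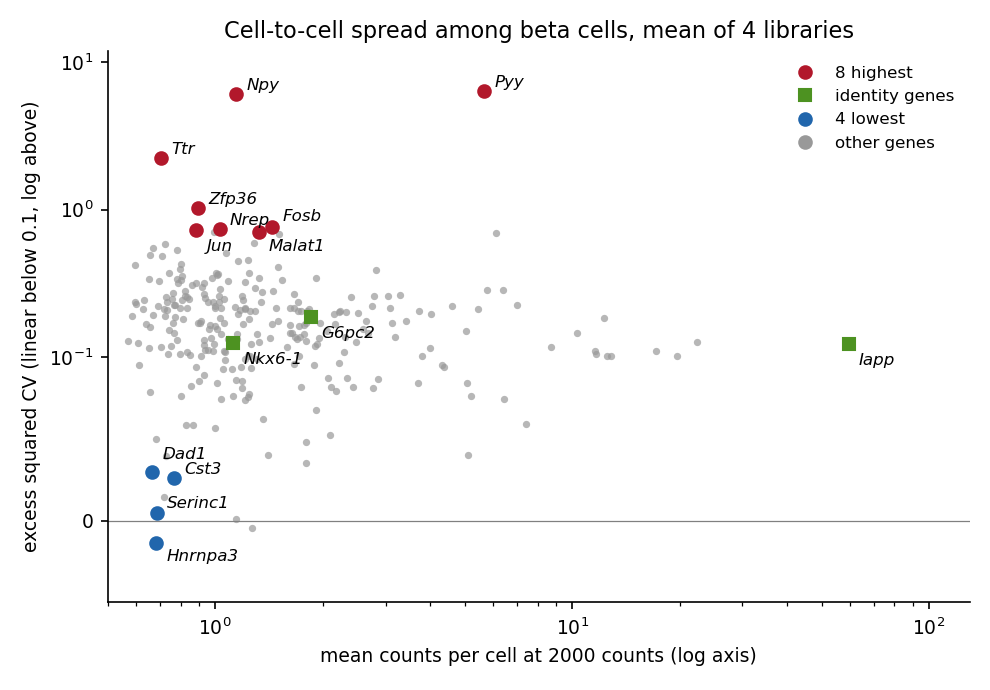
Mean counts per beta cell at 2000 counts a cell, on a log axis, against the excess squared CV averaged over libraries, 1 point a gene. The 8 most variable genes are red, led by Pyy (6.37, but 2.82 without mutant1_2426) and Npy (6.12, or 7.50 without it). The 4 least variable outside the ribosomal protein genes are blue, and Iapp, G6pc2 and Nkx6-1 are green.

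Over 193 genes measurable in both gates, the median spread of beta cells was 0.230 and 0.0940 in mutant and 0.140 and 0.107 in WT, against 0.298 and 0.133 in mutant and 0.160 and 0.154 in WT alpha cells. Beta cells were the less variable in 4 of 4 libraries, by a mean difference of -0.0436 ± 0.0198 (SD, n = 4 libraries, two-sided exact sign-flip test p = 0.125, the smallest that 4 libraries allow). The design thus cannot pass 0.05. In beta cells alone the median over their own genes was 0.262 and 0.119 in mutant and 0.144 and 0.120 in WT, a difference of 0.0585 (exact permutation p = 1).

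No gene passed the test between the genotypes in beta cells, with 2 libraries each. The SE of a log2 difference was wide, at 0.65 for G6pc2 and 0.60 for Nkx6-1, so sizeable differences could go uncalled. Of 15094 genes 0% were called by edgeR and 0 by DESeq2, with 25 higher and 12 lower in mutant before adjustment (p under 0.05) in edgeR, and 28 and 12 in DESeq2. The 5 smallest p-values among higher genes were those of Camp, S100a9, Ngp, S100a8 and Gng11. The first 4 are neutrophil genes of very few counts: Camp stood at 9.63 and 11.2 CPM in mutant and 0.20 and 0 CPM in WT beta cells (adjusted p = 1 in edgeR). Those among lower genes were Pnliprp1, Rnase1, Cela3b, Clps and Tmsb15b1, of which the first 4 are acinar genes. Summed acinar markers were 17.1 and 51.1 CPM in mutant and 22.6 and 355 CPM in WT beta cells, and their part in this order was not tested. The maturity, immaturity, granule, glucose sensing and unfolded protein lists had 0 genes called by edgeR, and the levels of Iapp, G6pc2, Ucn3 and Nkx6-1 overlapped between the genotypes.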

How the data were processed

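Single islet cells of mice labelled Sin3A mutant or WT were captured in droplets and sequenced from the 3′ end. The authors deposited a table of whole-number counts per gene and barcode for each library, and these counts were used as deposited. Builds GRCh38 and GRCm38 are named per the submitters' processing notes. Not given in the sources used here are the aligner, the annotation, the strand setting, the counting of molecular barcodes and the selection of barcodes. Reads of overlapping genes (Iapp and Slco1a5, Nnat and Blcap, Slc2a2 and 1700112D23Rik) may not be told apart. The 2 features without the mouse mark held 0 to 2 counts a library and were left out.

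The members and gene lists were chosen with earlier results of these data known. Scrublet called 40 of the 6566 kept barcodes doublets (0.609%), of which 12 were beta cells, and none were removed. Counts were summed per library and gate (at least 20 cells) without the 13 gate genes. They were tested with edgeR 4.0.16 in R 4.3.3 (TMM, its default low-count filter, quasi-likelihood test, Benjamini-Hochberg adjusted p under 0.05), with DESeq2 1.42.0 as an alternative. The SE of a log2 difference is its size over the square root of edgeR's F. The library was a block between gates of the same libraries and not between genotypes. The labels do not say what the title numbers mean, so they were not taken to pair mutant and WT libraries. Over all genes same-numbered libraries deviated together with r = 0.031, the same value for both numbers. Single genes could still go with the number: G6pc2, Nkx6-1, Pdx1 and the ratio of Ins1 to Ins2 were higher in both _2426 libraries. A fit with the number as block is given with the alternatives. Ratios within a library are log2 of CPM plus 1. Counting was done with Python 3.11.15, scanpy 1.11.5, numpy 2.4.6 and scipy 1.17.1. Libraries of 1 genotype differed beyond counting error in beta cells, as chi-square over degrees of freedom was 122 for mutant and 44.3 for WT.

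Spread was computed for genes of mean at least 0.5 thinned counts. Genes named are Sin3a, the markers, the 8 largest called differences per direction that kept their sign in each library and reached a mean of 50 CPM, the 5 smallest p per direction between genotypes, the 4 highest members of each list, and the 8 most and 4 least variable genes. Predicted, ribosomal and mitochondrially encoded genes were passed over in the ranked parts. Other genes were named after their values were seen. Some genes are not reported here.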

Additional observations from a re-analysis of the deposited data

Results flagged for a closer look

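Of 82 groups of 4 libraries checked for a value far from the others, 6 stood out with a gap over range above 0.829, where chance gives about 1 in 20. Between beta and delta cells the mutant1_2426 library stood apart for Zbtb48 (gap over range 0.913), with a log2 ratio of 9.71 against 5.38 to 5.75 in the other libraries. It also stood apart for Npy (0.873), with 10.07 against 6.17 to 6.66. The 25 delta cells of that library held no count of Zbtb48 or Npy, so both ratios there rest on the 1 CPM added to each value and are no measured folds. Between non-cycling and cycling beta cells WT1_3165 was low for Mapk15, a MAP kinase of cilia (0.906), with 0.585 against 0.944 to 0.982. Between insulin-rich and insulin-poor cells the mutant1_3165 library, which had the lowest insulin share, was high for Tceal6 (0.941), with 3.58 against 1.39 to 1.52. The same library was high for Cpne5 (0.948), with 2.45 against 1.34 to 1.40, and for Arap1 (0.901), with 2.25 against 1.16 to 1.27.

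Among marker, maturity, immaturity and transcription factor genes of at least 20 CPM in each library, 4 went opposite ways between mutant and WT beta cells in the 2 pairs of libraries that share a number in their titles, by more than 1 on the log2 scale each way. Ucn3 had log2 ratios of mutant over WT of 1.44 in the _2426 and -2.03 in the _3165 libraries, a difference of 3.468. Prlr, the prolactin receptor, had 1.73 and -1.34, a difference of 3.075. Dlk1 had -1.05 and 1.26, a difference of -2.3, and Pyy -2.11 and 1.76, a difference of -3.871. With 1 library of each genotype per number, these differences were not tested.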

How the results depend on the processing

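Without the replicate block between gates, edgeR called 870 genes against alpha, 593 against delta, 167 against PP and 306 against cycling cells, and 0 between insulin-rich and insulin-poor cells (17 up and 31 down before adjustment, at p under 0.05). DESeq2 called 1237 genes against delta, 331 against PP, 1534 against cycling cells and 48 between insulin-rich and insulin-poor cells. With no filter on low counts the insulin comparison had 238 called and mutant against WT 6. With the number as replicate block, mutant against WT had 0 called (15 up and 9 down before adjustment). Leaving out each library gave 2476 to 2871 called genes against alpha, 1355 (without WT1_2426) to 1843 against delta and 1599 (without WT1_2426) to 2070 against cycling cells. It gave 43 (without mutant1_2426) to 113 between insulin-rich and insulin-poor cells, where leaving out WT1_3165 gave 48, and 0 to 5 for mutant against WT, the 5 without WT1_2426. No library could be left out against PP cells. With DESeq2's size factors the split of calls against delta was 989 higher and 821 lower, and against PP 625 and 394. The median of all genes against delta was 0.17 by TMM and 0.04 by those factors.

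The percentage of beta cells in mutant minus WT turned to -1.12 with an insulin gate of 2%, to -4.99 with at most 10% mitochondrial counts and to -8.50 without mutant1_2426 (range -8.50 to 9.23). The median insulin share turned to -8.20 without mutant1_2426 (range -8.20 to 18.0). The difference in spread between beta and alpha cells ranged from -0.0494 to -0.0358. The cause was not tested for these.

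Single genes changed sign in some settings. In mutant against WT they were Sin3a (-0.02 with DESeq2 or its size factors, -0.088 without the filter, -0.031 with gate genes kept, -0.09 with the block, -0.01 at 2% insulin, -0.029 at 10% mitochondrial counts, -0.724 to 0.397 with 1 library left out), and with 1 library left out G6pc2 (-0.845 to 0.554), Nkx6-1 (-0.563 to 0.326), Cela3b (-5.027 to 0.693), Iapp (-0.28 to 0.163) and Ucn3 (-1.31 to 0.745). The others were Iapp in non-cycling over cycling cells (-0.011 to 0.109 with 1 library left out) and G6pc2 in insulin-rich over insulin-poor cells (0.035 at 10% mitochondrial counts, -0.043 to 0.047 with 1 library left out). Of the other values for single genes 1297 kept direction and call, 66 lost their call, 30 of these without the block, and 11 gained one. The setting without the richest cell of each library, for Pyy and Npy, was chosen after the data were seen.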

Other observations

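Other groups of genes were compared with alpha cells. Of 16 genes reported to vary among beta cells, 14 were tested, with 3 higher (21.4%, against 13% of all genes), 6 lower (42.9%, against 9.89%) and a median log2 difference of -0.02. Ddc, which makes dopamine and serotonin, was higher by 2.13 and stood at 275 and 765 CPM in mutant and 346 and 870 CPM in WT beta cells, against 73.6 and 202 CPM in mutant and 110 and 175 CPM in WT alpha cells. Cd81, a membrane tetraspanin, differed by -1.01, with 284 and 486 CPM in mutant and 381 and 265 CPM in WT beta cells, against 591 and 951 CPM in mutant and 941 and 680 CPM in WT alpha cells. Nuclear genes of the respiratory chain had 9 higher (40.9%) and 1 lower (4.55%) of 22 tested, with a median of 0.34. Mitochondrially encoded genes had 6 higher (46.2%) and 0 lower of 13, with a median of 0.44. The adjusted p-values of both come from edgeR's quasi-likelihood test.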
